A study of Mus musculus with 12 samples.

Results

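The genes described here are 7 matrix metalloproteinases (MMPs), Mmp2, Mmp8, Mmp9, Mmp12, Mmp13, Mmp14 and Mmp19, and 3 tissue inhibitors of metalloproteinases (TIMPs), Timp1, Timp2 and Timp3. They were chosen by gene symbol, and all 10 were found among the 43453 genes of the count table. For each gene the transcript row with the highest total count over the 12 libraries was used. PolyA RNA-seq was carried out on bone marrow-derived macrophages (BMDMs) of C57BL/6 background, grown from mouse marrow with 50 ng/mL M-CSF for 7 days, and left unstimulated or stimulated with 1 µg/mL lipopolysaccharide (LPS), a bacterial ligand of TLR4, for 6 h. Both genotypes carry floxed tlr4 alleles. In tlr4f/f mice (floxed below) these are intact, while in tlr4f/f-lysM-cre mice (Cre below) Cre recombinase, expressed from the lysM (Lyz2) locus, deletes tlr4 in myeloid cells only, so that any other cell type in a culture keeps it. Each of the 4 groups held 3 libraries, and the labels do not say whether these came from separate mice, so every p-value measures the spread between these libraries. The total counts were 33577440 to 56445989 per library with 1 row per gene. Levels are given as CPM, the read count relative to the library total of the 15792 genes that passed a low-count filter. TMM scaling corrects each total by a factor computed from these genes.

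The headings of the unstimulated tlr4f/f-lysM-cre and the LPS tlr4f/f columns went against 3 genes that check them. Tlr4 measured 77.0, 146 and 121 CPM in the unstimulated floxed libraries and 117, 94.7 and 116 CPM in those headed unstimulated Cre. It was 31.2, 28.0 and 24.5 CPM in the libraries headed LPS floxed and 27.4, 24.4 and 24.7 CPM in the LPS Cre libraries. As headed, no difference in the deleted gene beyond the spread was detected between the genotypes, with a log2 fold change of -0.07 (SE 0.25, edgeR quasi-likelihood test, Benjamini-Hochberg adjusted p = 0.847) without LPS and of -0.12 (SE 0.09, adjusted p = 0.280) with it. Lyz2, the gene that lysM-cre is inserted into, was 13113 ± 8962 CPM (SD, n = 3) in the unstimulated floxed libraries and 7574 ± 1764 CPM in those headed unstimulated Cre, against 11.9 ± 2.22 CPM and 62.0 ± 11.9 CPM in the libraries headed LPS floxed and LPS Cre. Il1b, a cytokine gene that LPS induces in macrophages, was 3.70 ± 3.45 and 3.23 ± 0.48 CPM in the 2 groups headed floxed and 4223 ± 3515 and 2588 ± 92.7 CPM in the 2 groups headed Cre. If these 2 headings were exchanged, the Tlr4 and Lyz2 levels would separate the genotypes and the Il1b level would separate the treatments. The names below are those of the headings. If the 2 headings were exchanged, a difference between the unstimulated columns would be the LPS effect in floxed. One between the LPS columns would be the LPS effect in Cre. A difference within the floxed headings would be the genotype difference without LPS, and one within the Cre headings that with LPS. This holds for every comparison below, also where only the name as headed is given. No library and no value changes between the 2 readings.

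MMPs are zinc-dependent proteases that cut extracellular matrix and many other secreted or surface proteins, and most are made as inactive proenzymes that other proteases activate. The gelatinases MMP2 and MMP9 cut denatured collagen and type IV collagen, the collagenases MMP8 and MMP13 cut fibrillar collagen, MMP12 is the macrophage elastase, and MMP14 is anchored in the cell membrane, where it degrades pericellular matrix and, with TIMP2, activates the MMP2 proenzyme. TIMPs bind the active site of MMPs, and TIMP3, which is held in the matrix, also inhibits ADAM17, the protease that sheds TNF. Macrophages are a known source of several of these enzymes in inflamed tissue.

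The promoters of Mmp13, Mmp14 and Mmp12 are shown because the first 2 genes differed most between the LPS columns and the last had the highest level per length in 3 of the 4 groups. RefSeq promoter sequences (GRCm38.p6, 250 bases before to 50 bases after a start) were matched for 7 of the 10 genes, with 2 starts for Mmp12; Mmp2, Mmp9 and Mmp19 were not matched. All 3 are on the + strand, and capitals mark matches to the AP-1 motif (letters TGANTCA) or the RUNX motif (letters AACCACA), both searched on both strands.
Mmp13, chr9:7272264-7272563: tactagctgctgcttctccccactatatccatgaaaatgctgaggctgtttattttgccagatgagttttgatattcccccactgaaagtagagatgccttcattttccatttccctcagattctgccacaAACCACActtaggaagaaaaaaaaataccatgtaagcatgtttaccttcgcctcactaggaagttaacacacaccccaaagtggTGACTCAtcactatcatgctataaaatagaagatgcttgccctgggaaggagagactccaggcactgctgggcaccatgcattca
Mmp12, second start, chr9:7347124-7347423: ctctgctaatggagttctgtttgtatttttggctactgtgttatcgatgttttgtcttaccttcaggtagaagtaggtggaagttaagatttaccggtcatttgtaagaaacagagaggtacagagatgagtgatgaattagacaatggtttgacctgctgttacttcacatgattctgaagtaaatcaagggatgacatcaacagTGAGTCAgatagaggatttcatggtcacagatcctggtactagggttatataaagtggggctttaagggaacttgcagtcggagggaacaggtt
Mmp14, chr14:54431348-54431647: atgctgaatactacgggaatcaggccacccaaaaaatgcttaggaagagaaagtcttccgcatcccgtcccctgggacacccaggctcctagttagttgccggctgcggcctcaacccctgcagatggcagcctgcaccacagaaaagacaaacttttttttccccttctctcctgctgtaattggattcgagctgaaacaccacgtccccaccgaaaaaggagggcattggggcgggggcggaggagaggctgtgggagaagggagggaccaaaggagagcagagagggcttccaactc
The Mmp13 window holds an AP-1 match at -35 to -29 from the start, a RUNX match at -119 to -113 and TATAAA at -16 to -11. The window of the second Mmp12 start holds an AP-1 match at -44 to -38 and TATAAA at 5 to 10. The counted Mmp12 transcript begins at the first start instead (window chr9:7344147-7344446), which holds no match to these 3 motifs. That window holds 1 match to the NF-kB letters GGGNNNNNCC at -129 to -120. AP-1, RUNX and TATAAA (start strand only) were likewise not matched in the Mmp14 window, which holds 1 match to the NF-kB letters GGGNNNNNCC at 13 to 22. Of all 32851 promoter windows of the same length, 7.81% hold the AP-1 letters, 5.27% the RUNX letters, 8.32% TATAAA and 50.8% the NF-kB letters, and no listed match overlapped a match to another motif. A match of letters is a description of the window and no site of binding.

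**Figure D1:**
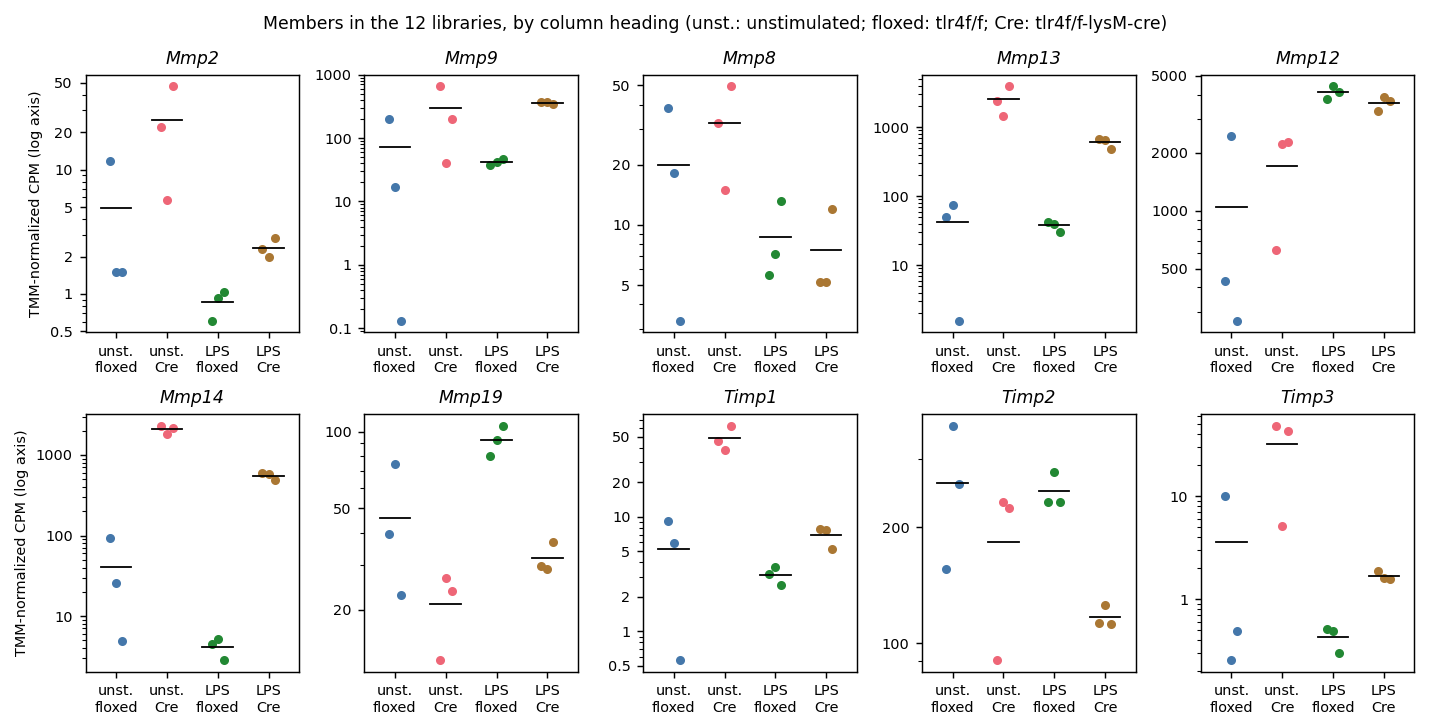
CPM of each of the 10 genes in the 12 libraries on a log axis, grouped by column heading, with 1 point per library and a bar at the mean of 3. The libraries headed LPS lie close together while the unstimulated ones spread widely, and Mmp13 and Mmp14 are high in both groups headed Cre.

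Mmp14 (chr14:54431612-54445364) separated the column groups most widely. It measured 92.3, 25.8 and 4.95 CPM in the unstimulated floxed libraries, and 2321, 1830 and 2149 CPM in those headed unstimulated Cre. The libraries headed LPS floxed had 4.46, 5.13 and 2.85 CPM, and the LPS Cre libraries had 602, 572 and 488 CPM. All 6 libraries headed Cre thus lay above all 6 headed floxed, and only the 2 groups headed floxed overlapped each other. The highest group mean was 507-fold above the lowest. Between the unstimulated columns Mmp14 was 50.8-fold higher under the Cre heading (log2 fold change 5.67, SE 1.09, edgeR adjusted p = 0.0092; the LPS effect in floxed if exchanged), and between the LPS columns it was 137-fold higher (7.10, SE 0.23, adjusted p = 1.34e-06; the LPS effect in Cre if exchanged). Within the Cre headings it was 3.76-fold lower in the LPS columns (-1.91, SE 0.16, adjusted p = 0.00126; the genotype difference with LPS if exchanged).

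Mmp13 (chr9:7272514-7283331), collagenase-3, had a similar order of groups. Its levels were 50.0, 73.4 and 1.57 CPM in the unstimulated floxed libraries and 2368, 1459 and 3924 CPM in those headed unstimulated Cre. They were 42.9, 40.0 and 30.5 CPM in the libraries headed LPS floxed and 685, 652 and 482 CPM in the LPS Cre libraries. Here too the groups headed floxed overlapped and the other 2 stood apart from each other and from them. The difference between the LPS columns was 16.2-fold (log2 fold change 4.02, SE 0.21, edgeR adjusted p = 1.92e-05). Between the unstimulated columns it was 61.7-fold with a 95% confidence interval of 6.30 to 604, and it missed the threshold for a call, which was a more than 2-fold difference at an adjusted p under 0.01 (adjusted p = 0.0169). In the LPS against the unstimulated Cre columns the log2 difference was -2.09, and it too missed the threshold (adjusted p = 0.0109). Mmp8 (chr9:7558456-7568485), the other collagenase and best known from neutrophil granules, measured 38.6, 18.2 and 3.32 CPM in the unstimulated floxed libraries and 32.3, 15.0 and 49.4 CPM in those headed unstimulated Cre. It measured 5.62, 7.17 and 13.2 CPM in the libraries headed LPS floxed and 5.20, 5.18 and 11.99 CPM in the LPS Cre libraries. Each neighbouring pair in the order of its group levels overlapped. It passed the threshold in no comparison, and its log2 difference between the LPS columns was -0.21 with a 95% confidence interval from -1.57 to 1.15.

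Mmp9 (chr2:164940780-164955850), gelatinase B, showed the widest spread between libraries of a group. In the unstimulated floxed libraries it measured 199, 17.0 and 0.131 CPM, from 11619, 1067 and 7 counts. The libraries headed unstimulated Cre had 655, 39.9 and 199 CPM. In contrast, the 3 libraries headed LPS floxed had 37.7, 41.5 and 46.5 CPM, and the LPS Cre libraries had 365, 369 and 345 CPM. The LPS columns therefore did not overlap, with Mmp9 8.63-fold higher in LPS Cre (log2 fold change 3.11, SE 0.08, edgeR adjusted p = 6.93e-12). The unstimulated columns overlapped, and their 4.12-fold difference had a 95% confidence interval of 0.168 to 101 (adjusted p = 0.434). Mmp2 (chr8:92827291-92853420), gelatinase A and typically a product of fibroblasts, was low in most libraries. It measured 11.6, 1.498 and 1.499 CPM in unstimulated floxed, 22.1, 5.73 and 46.9 CPM under the unstimulated Cre heading, 0.610, 0.928 and 1.04 CPM under LPS floxed, and 2.30, 1.97 and 2.81 CPM in LPS Cre. Between the LPS columns, which did not overlap, the 2.76-fold difference passed the threshold (log2 fold change 1.46, SE 0.26, edgeR adjusted p = 0.000365).

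Mmp12 (chr9:7344381-7369499) differed least between the LPS columns. In the unstimulated floxed libraries it measured 434, 2443 and 269 CPM, and in those headed unstimulated Cre 626, 2224 and 2262 CPM. The libraries headed LPS floxed had 3793, 4416 and 4117 CPM and the LPS Cre libraries 3288, 3864 and 3710 CPM. All 6 libraries headed LPS thus lay above all 6 unstimulated ones, and within each treatment heading the genotypes overlapped. Mmp12 nevertheless passed the threshold in no comparison. The log2 difference was 1.98 (95% confidence interval -0.04 to 4.002, edgeR adjusted p = 0.210) between LPS and unstimulated floxed, 1.10 (0.02 to 2.18, adjusted p = 0.117) between LPS and unstimulated Cre, and -0.17 (-0.34 to -0.01, adjusted p = 0.0649) between the LPS columns. If the headings are exchanged, the first 2 are genotype differences and the last is the LPS effect in Cre. Mmp19 (chr10:128790910-128800824), a secreted MMP outside the main groups, was the single MMP that was lower in LPS Cre by this test. It measured 39.6, 75.0 and 22.8 CPM in unstimulated floxed, 12.7, 26.7 and 23.7 CPM under unstimulated Cre, 80.3, 92.9 and 106 CPM under LPS floxed, and 29.8, 28.9 and 36.8 CPM in LPS Cre. The libraries headed LPS floxed were the highest and overlapped none of the others. Its 2.90-fold difference between the LPS columns had a log2 fold change of -1.53 (SE 0.13, edgeR adjusted p = 2.56e-05).

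Among the inhibitors, Timp1 (chrX:20870166-20874735), the inducible TIMP, measured 9.23, 5.85 and 0.562 CPM in the unstimulated floxed libraries and 46.3, 38.3 and 62.6 CPM in those headed unstimulated Cre. It was 3.14, 3.61 and 2.52 CPM in the libraries headed LPS floxed and 7.85, 7.62 and 5.24 CPM in LPS Cre. The libraries headed unstimulated Cre stood above all others. Timp1 was 7.07-fold lower in the LPS than in the unstimulated Cre columns (log2 fold change -2.82, SE 0.26, edgeR adjusted p = 0.00151) and 2.26-fold higher in LPS Cre than in LPS floxed columns (1.18, SE 0.19, adjusted p = 0.000141). Between the unstimulated columns the groups did not overlap, but the 9.34-fold difference missed the threshold (95% confidence interval 2.11 to 41.4, adjusted p = 0.0315). Timp2 (chr11:118301069-118355740, - strand), which is expressed constitutively in many cells, differed in the opposite direction between the LPS columns. It measured 155, 367 and 259 CPM in unstimulated floxed, 90.5, 232 and 225 CPM under unstimulated Cre, 233, 278 and 232 CPM under LPS floxed, and 113, 126 and 112 CPM in LPS Cre. In the LPS columns Timp2 was 2.10-fold lower in Cre (log2 fold change -1.07, SE 0.08, edgeR adjusted p = 2.79e-07), close to the required fold of 2, and without LPS floxed replicate 2 the log2 fold change was -0.97 and the call was lost. Each neighbouring pair in the order of its group levels (unstimulated floxed, LPS floxed, unstimulated Cre, LPS Cre) overlapped. Timp3 (chr10:86300372-86349506), the TIMP that also inhibits ADAM17, measured 9.97, 0.255 and 0.487 CPM in unstimulated floxed, 48.8, 5.11 and 43.7 CPM under unstimulated Cre, 0.505, 0.490 and 0.295 CPM under LPS floxed, and 1.89, 1.59 and 1.57 CPM in LPS Cre. It rested on 16 to 26 counts in 5 of the 6 libraries headed floxed. It was 3.98-fold higher in LPS Cre than in LPS floxed (1.99, SE 0.30, adjusted p = 9.61e-05).

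**Figure D2:**
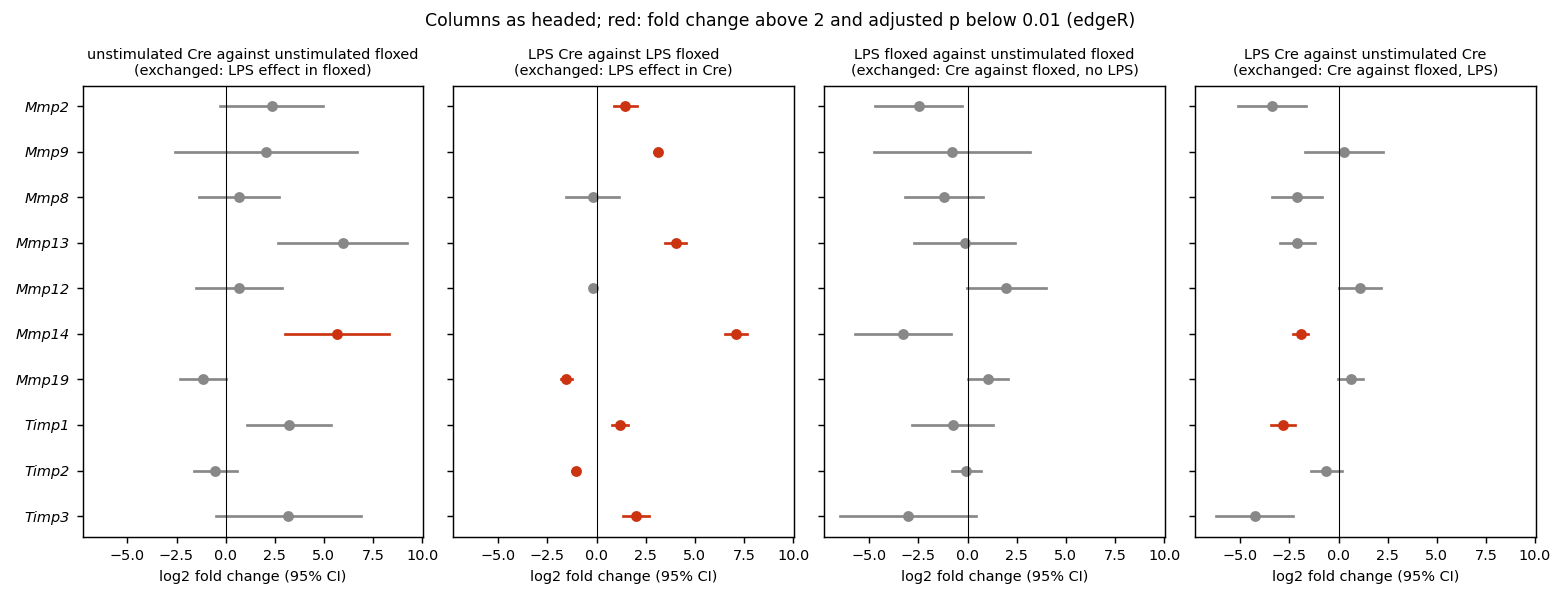
Log2 fold change of each gene with its 95% confidence interval (edgeR) in the 4 comparisons of 2 column groups, each titled as headed and, in brackets, with the 2 headings exchanged. Red points were called: 1 of 10 between the unstimulated columns, 8 between the LPS columns, 0 between the floxed columns and 2 between the Cre columns.

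The comparison between the LPS columns (the genotype difference with LPS as headed, the LPS effect in Cre if exchanged) called 8 of the 10 genes, against 21.8% of the 14551 genes tested. In LPS Cre 6 were higher and 2 lower, against 10.8% and 10.9% of all genes. Mmp2, Mmp9, Mmp13, Mmp14, Timp1 and Timp3 were the higher ones, Mmp19 and Timp2 the lower ones, and Mmp8 and Mmp12 were not called. The median log2 fold change was 1.32 over the 10 genes and -0.02 over all genes tested. The same 8 genes had columns that did not overlap, which held for 67.5% of all genes tested. When all 12 libraries shared one estimate of the spread, 2 of the 8 calls were left, Mmp13 and Mmp14.

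Between the unstimulated columns (the genotype difference without LPS as headed, the LPS effect in floxed if exchanged) 1 of the 10 genes was called, Mmp14, against 17.1% of 14649 genes called either way and 9.26% called higher. At an adjusted p below 0.05 there were 3, Mmp13, Mmp14 and Timp1, against 37.3% of all genes. The median log2 fold change was 2.20 over the 10 genes and -0.08 over all. Mmp13, Mmp14 and Timp1 did not overlap between these columns, as did 54.1% of all genes tested. The Mmp14 call was lost without unstimulated floxed replicate 2 (adjusted p = 0.0404) and without unstimulated Cre replicate 1, 2 or 3 (adjusted p = 0.0263, 0.0253 and 0.0261). Over the 6 fits without 1 library its log2 fold change was 5.13 to 7.08, the highest being without unstimulated floxed replicate 1, where the call was kept (adjusted p = 0.00592). Without unstimulated floxed replicate 3, Mmp13 (5.37, adjusted p = 0.00373) and Timp1 (2.68, adjusted p = 0.00510) were called as well. In a fit that blocks on replicate number Mmp14 was not called either (log2 fold change 6.43, adjusted p = 0.0142), nor was it without the filter on low counts (adjusted p = 0.0401) or with counts summed over transcript rows (adjusted p = 0.0114).

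Within the Cre headings (the LPS effect as headed, the genotype difference with LPS if exchanged) Mmp14 and Timp1 were called, both lower in the LPS columns, against 6.09% of 14245 genes called either way and 3.66% called lower. Mmp2, Mmp8, Mmp13 and Timp3 had log2 fold changes of -2.09 to -4.27 at adjusted p-values of 0.0109 to 0.0293 and were not called, which makes 6 of the 10 below 0.05 against 26.7% of all genes, and 8 of the 10 genes did not overlap, as did 48% of all genes tested. The median log2 fold change was -2.00 over the 10 genes and 0.03 over all. Without unstimulated Cre replicate 2, 5 genes were called, Mmp2 (-3.86), Mmp13 (-2.37), Mmp14, Timp1 and Timp3 (-4.77). Both calls were lost without LPS Cre replicate 1, 2 or 3, at adjusted p-values of 0.0141 to 0.0169. In the fit that blocks on replicate number Timp1 was not called (adjusted p = 0.01001), and with all 12 libraries in one fit neither was (adjusted p = 0.0724 for Mmp14 and 0.0126 for Timp1).

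Within the floxed headings (the LPS effect as headed, the genotype difference without LPS if exchanged) 0 of the 10 genes were called by edgeR, and 0 of 14712 genes in all, a share of 0%. Lyz2 (log2 fold change -10.09, SE 0.70, edgeR adjusted p = 0.0224) and Tlr4 (-2.02, SE 0.25, adjusted p = 0.0402) were not called here either. The absence of a call in this comparison thus does not show the absence of a difference. At an unadjusted p below 0.05 there were 3 of the 10, Mmp2 (log2 fold change -2.49), Mmp14 (-3.30) and Mmp19 (1.03), and 24.6% of all genes tested. DESeq2 and limma called none of the 10 either. The test of the difference of differences, which is the same number in both readings, called 0 of the 10 genes, against 0.994% of 15792 genes. One of the 10, Timp1, had an unadjusted p below 0.05, against 23.4% of all genes (log2 -2.07, SE 0.93, edgeR adjusted p = 0.214), and DESeq2 and limma called none. The 4 comparisons share libraries with each other, so their values are not independent. Among replicates, edgeR estimated a biological variation of 48.4% (floxed) and 42.8% (Cre) for the unstimulated columns and of 8.78% and 9.02% for the LPS columns.

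The balance of enzyme and inhibitor transcripts was compared per kilobase of the counted transcript, since the 10 transcripts differ in length. Mmp12 made up 94.95% ± 0.31 (SD, n = 3) of the summed CPM per kilobase of the 7 MMPs in the columns headed LPS floxed, 66.4% ± 3.83 in LPS Cre, 74.8% ± 24.7 in unstimulated floxed and 22.6% ± 13.8 in those headed unstimulated Cre. In that last group Mmp13 with 44.2% ± 10.4 and Mmp14 with 27.2% ± 6.02 had the larger mean shares. Timp2 was the most abundant TIMP in every library headed LPS and in every unstimulated floxed library, with 95.1% ± 0.54 of the summed TIMP level in LPS floxed, 80.0% ± 3.07 in LPS Cre and 90.1% ± 11.2 in unstimulated floxed. Under unstimulated Cre it shared the lead with Timp1, at 43.9% ± 15.3 and 49.6% ± 9.85. The summed MMP level was 1.16- to 6.83-fold the summed TIMP level in unstimulated floxed, 15.4- to 21.7-fold under unstimulated Cre, 15.6- to 17.8-fold under LPS floxed and 35.6- to 38.8-fold in LPS Cre. The ranges of the unstimulated Cre and the LPS floxed columns overlapped and the other 2 stood apart. Without Mmp12 the ratio was 0.145 to 2.47, 9.75 to 19.8, 0.738 to 0.950 and 11.6 to 13.4 in the same order. These are sums over RNA levels and say nothing of enzyme activity.

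**Figure D3:**
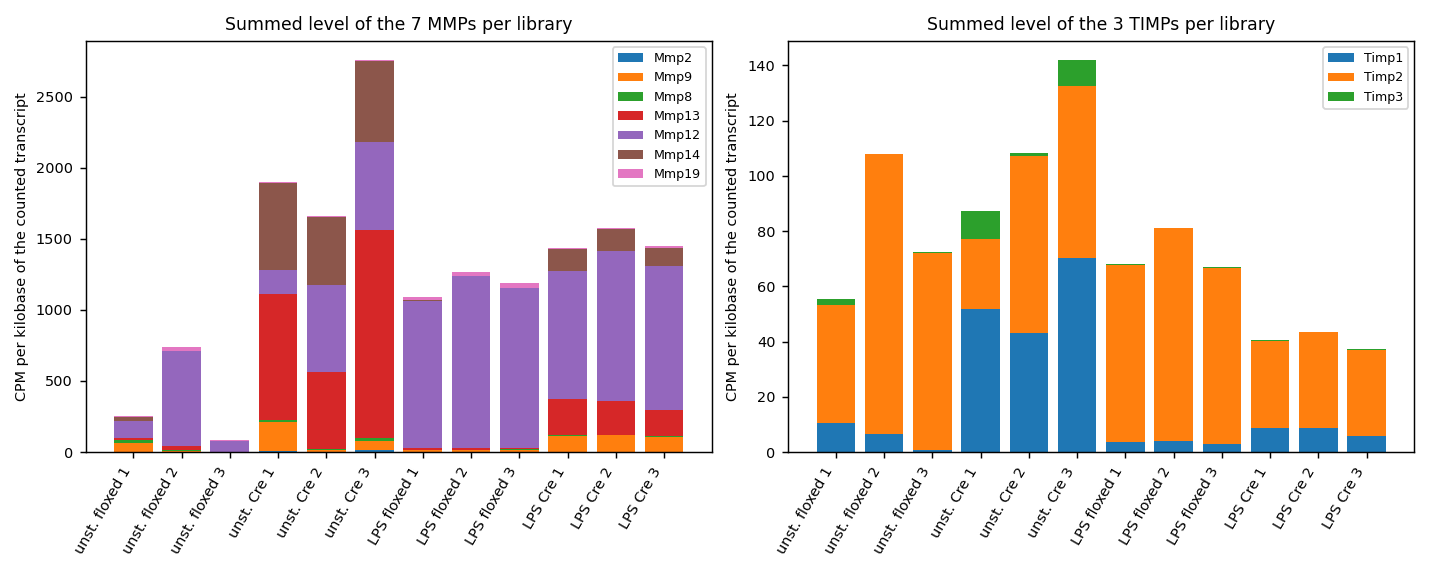
Stacked levels of the 7 MMPs (left) and the 3 TIMPs (right) in CPM per kilobase of the counted transcript, 1 bar per library from 0, in the order of the headings. Mmp12 fills nearly the whole bar in the libraries headed LPS floxed, while Mmp13 and Mmp14 fill most of the bar in those headed unstimulated Cre. The level of Timp1 is higher in these last libraries than in all others, though in replicate 2 of them Timp2 is the larger part of the TIMP bar.

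Markers of macrophages were high in every library, with a summed level of 8 genes between 8179 and 14707 CPM, and all 8 were detected throughout. Markers of fibroblasts and stroma (12 genes, none at 0 counts in any library) differed far more. Their summed level was 879, 81.3 and 14.8 CPM in the unstimulated floxed libraries, 1310, 227 and 1973 CPM in those headed unstimulated Cre, 29.6 to 38.2 CPM under LPS floxed and 58.5 to 76.2 CPM in LPS Cre. Mmp2 and Timp3 were highest in the 3 libraries with the most stromal RNA, and the part of these cells in their levels was not tested; in bulk RNA, fewer cells of a type and less RNA per cell cannot be told apart. Mmp14 differed by 1.27-fold among the 3 libraries headed unstimulated Cre, across which the stromal sum differed by 8.67-fold. The library with 879 CPM of stromal markers had 92.3 CPM of Mmp14, while the LPS Cre libraries, with at most 76.2 CPM of these markers, had at least 488 CPM. The part of stromal RNA in the Mmp14 level was not tested. Within the stromal list Pdgfrb followed the headings as Mmp14 did, at 47.8 to 59.8 CPM and 13.8 to 20.8 CPM in the unstimulated and LPS Cre columns against 0.412 to 11.96 CPM and 0.505 to 0.748 CPM in the floxed columns. Of 11 stromal markers tested between the LPS columns, only Pdgfrb (log2 fold change 4.81) and Pdgfra (1.77) were called, both higher in Cre, against 10.8% of all genes. The median over the 11 was 0.66. Markers of neutrophils and their precursors (10 genes, 1 to 4 of them at 0 in each library) summed to 192 CPM in unstimulated Cre replicate 3 and to between 0.675 and 27.9 CPM elsewhere. That library also had the highest Mmp8 level, and the part of neutrophil RNA in it was not tested. Of 6 neutrophil markers tested between the LPS columns, 2 were called higher in Cre, Camp (log2 fold change 3.31) and S100a8 (1.06). Another 2 were called lower, Cxcr2 (-4.60) and Mpo (-1.92), where 10.8% of all genes were called higher and 10.9% lower.

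Markers of osteoclasts, endothelium and dendritic cells also differed between headings. Osteoclasts are made from the macrophage lineage, and the 8 osteoclast markers, of which Calcr was at 0 in all 3 LPS floxed libraries, summed to 663 to 799 CPM in LPS floxed and to 290 to 351 CPM in LPS Cre. In the unstimulated columns their sums were 108 to 355 CPM in floxed and 106 to 375 CPM in Cre. Of the 6 tested between the LPS columns, 2 were called lower in Cre and none higher, against 10.9% and 10.8% of all genes. They were Itgb3 (log2 fold change -2.86, SE 0.28, edgeR adjusted p = 7.24e-05) and Atp6v0d2 (-2.04, SE 0.09, adjusted p = 3.66e-08). Acp5 of the same list was higher (0.996, SE 0.11, adjusted p = 2.09e-05) but missed the required fold of 2. Within the Cre headings Dcstamp was called higher in the LPS columns (4.05, SE 0.16, adjusted p = 0.000254), where 6.09% of all genes were called either way. The osteoclast sum was thus highest in the LPS floxed libraries, where Mmp19 and Timp2 were also higher than in LPS Cre. The mean of Timp2, however, was highest in unstimulated floxed, at 260 CPM against 248 CPM in LPS floxed, and the osteoclast sum there was 108 to 355 CPM. The 3 endothelial markers, none at 0 in any library, summed to 39.1 to 121 CPM in unstimulated Cre against 4.19 to 16.1 CPM in unstimulated floxed, and to 9.91 to 15.6 CPM in LPS Cre against 4.36 to 7.26 CPM in LPS floxed. Pecam1 was called higher in Cre between the unstimulated columns (3.70, SE 0.67, edgeR adjusted p = 0.00708), and Pecam1 and Kdr between the LPS columns. In these comparisons 9.26% and 10.8% of all genes were called higher. Cdh5, the other gene of this list, was not called, at -0.33 (SE 0.32, adjusted p = 0.394) between the LPS columns. The 6 dendritic cell markers, up to 2 of them at 0 in a library, summed to 4.98 to 13.2 CPM and 3.21 to 3.85 CPM in the unstimulated and LPS Cre columns, and to at most 0.944 and 1.11 CPM in the floxed columns. Of 2 tested between the unstimulated columns, Xcr1 was called higher in Cre (4.75, SE 0.84, edgeR adjusted p = 0.00651), against 9.26% of all genes. Of 4 tested between the LPS columns, Xcr1 (3.62, SE 0.39, adjusted p = 5.02e-06) and Ccr7 were called higher in Cre, against 10.8% of all genes. Zbtb46 (0.78, SE 0.54) and Clec9a (-0.50, SE 0.60) were not called there. Of 8 macrophage markers, Cd14 (1.97, SE 0.06) and Adgre1 (1.76, SE 0.06) were called higher in LPS Cre than in LPS floxed, against 10.8% of all genes, and none was called lower. Lgals3 (-0.79, SE 0.07, edgeR adjusted p = 6.01e-07) and Cd68 (-0.36, SE 0.06, adjusted p = 0.000236) were lower but missed the required fold of 2. The median over the 8 was 0.48. Of 5 mast cell and basophil markers 2 were tested between these columns, and Gata2 was called lower (-1.71, SE 0.28), against 10.9% of all genes. The part of RNA from osteoclasts, endothelium or dendritic cells in the differences of the 10 genes was not tested.

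**Figure D4:**
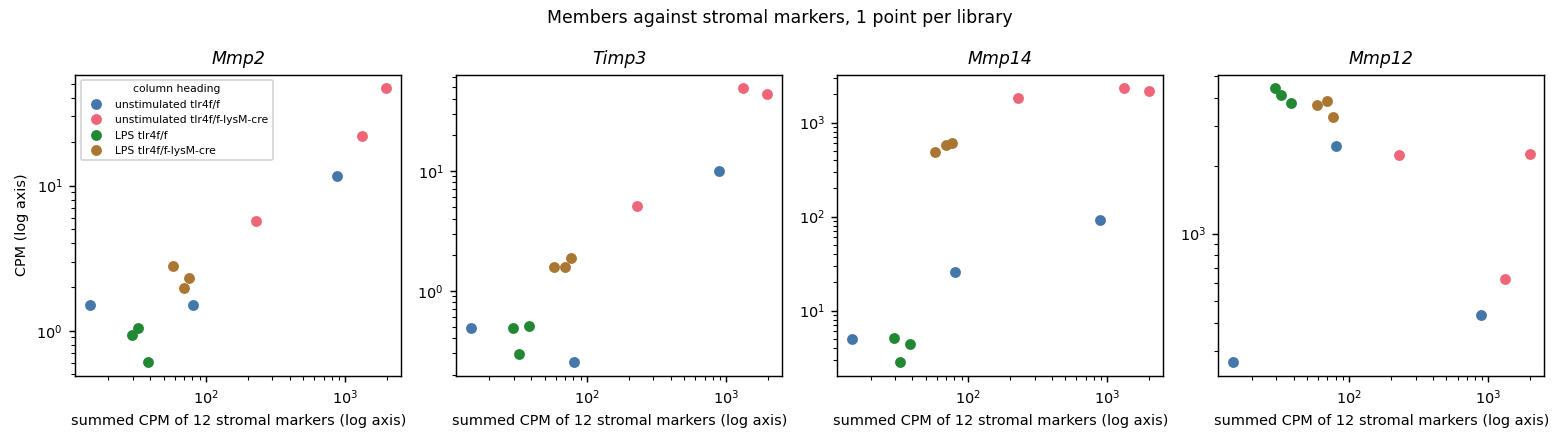
CPM of Mmp2, Timp3, Mmp14 and Mmp12 against the summed CPM of 12 fibroblast and stroma markers, 1 point per library, coloured by column heading, both axes logarithmic. Mmp2 and Timp3 are highest in the 3 libraries with the most stromal RNA, while Mmp14 sits between 1830 and 2321 CPM in all 3 libraries headed unstimulated Cre. The 6 libraries headed LPS, which have the most Mmp12, have stromal sums of at most 76.2 CPM. Mmp12 is at 269 CPM in the library with the lowest stromal sum (14.8 CPM) and at 2262 CPM in that with the highest (1973 CPM).

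Other genes that act with MMPs were read from lists. Each list's count stands against the share of all genes tested, which was 9.26% called higher in Cre between the unstimulated columns, 10.8% higher and 10.9% lower between the LPS columns, and 3.66% lower in LPS within the Cre headings. Of 16 other MMPs, 5 to 10 had enough counts to be tested. Mmp25, a membrane-anchored MMP of leukocytes, was higher under unstimulated Cre, at 16.1 ± 9.23 CPM, than in unstimulated floxed, at 0.126 ± 0.103 CPM from 1 to 14 counts (log2 fold change 6.91, SE 0.83, edgeR adjusted p = 0.00196). It was lower again in LPS Cre (log2 -4.22 against unstimulated Cre). In the LPS columns Mmp25 and Mmp3, stromelysin-1, were called higher in Cre, and Mmp3 had 29 to 45 counts against 0 to 5. Of 4 further inhibitors, 1 at most could be tested and none was called.

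The plasminogen system activates several MMP proenzymes. Among the genes for activation and clearance of MMPs, Plau, urokinase, was lower in LPS Cre, at 108 ± 8.71 CPM against 926 ± 170 CPM under LPS floxed (log2 fold change -3.09, SE 0.15, edgeR adjusted p = 2.14e-06). Plaur, the urokinase receptor, was higher in the same comparison (log2 1.36, SE 0.06). Within the Cre headings Plau was higher in the LPS columns (log2 1.91, SE 0.31), and Furin, a proprotein convertase that activates MMP14, was lower (log2 -1.60, SE 0.23).

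Of 9 ADAM-family genes tested in each comparison, 3 were called higher and none lower in unstimulated Cre against unstimulated floxed, where 9.26% of all genes were called higher, with Adamts4, an aggrecanase, leading at 131 ± 83.9 CPM against 0.356 ± 0.414 CPM from 2 to 48 counts (log2 fold change 8.49, SE 1.11, edgeR adjusted p = 0.00253). Rhbdf2 (iRhom2, a partner of ADAM17) and Adam17 were the other 2. These 3 were also higher between the LPS columns, where Adam8 was lower, and Adamts4, Adam8 and Rhbdf2 were lower in the LPS than in the unstimulated Cre columns. No comparison called any of 4 matrix-degrading cathepsins.

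Among 13 matrix substrates, 12 or 13 of which were tested, Vcan (versican) was 104 ± 9.50 CPM in LPS Cre and 1.19 ± 0.505 CPM under LPS floxed (log2 fold change 6.40, SE 0.21, edgeR adjusted p = 3.75e-07), and it was likewise higher between the unstimulated columns (6.54, SE 1.10). Sdc4, a cell-surface proteoglycan, was called higher in both of these comparisons and Col4a2 in the first. Within the Cre headings Col1a1 (-5.11, SE 0.86), Col1a2 and Sdc4 were lower in the LPS columns. Col1a1 and Col1a2 are also in the stromal marker list described above.

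Of 13 transcription factors known to act on MMP promoters, 12 or 13 were tested. Between the unstimulated columns 5 of 13 were called higher in Cre and none lower, where 9.26% of all genes were called higher, led by Nfkb1, an NF-kB subunit, at 853 ± 267 against 103 ± 19.97 CPM (log2 fold change 3.05, SE 0.30, edgeR adjusted p = 0.00107), with Fosl2, Junb, Ets2 and Rela. Between the LPS columns 3 were higher, Nfkb1, Ets2 and Junb, and 3 lower, Fosb, Ets1 and Runx2, of which Fosb had 1 count in each LPS Cre library and 22 to 29 counts in those headed LPS floxed. Etv4 (-3.08, SE 0.54), Fosl2 and Junb were lower in the LPS than in the unstimulated Cre columns. Junb, an AP-1 subunit, was also the single gene of these lists called in the difference of differences (-1.57, SE 0.19, adjusted p = 0.00251). Within the floxed headings no gene of any list was called by edgeR.

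The genes whose levels ran most alike were found by Pearson's r of log2 CPM over the 12 libraries among 15791 genes, which is a description over libraries that share groups and depth. Cdkn1a was most like Mmp13 (r = 0.992) and Ddx60 most like Mmp14 (r = 0.992). Sod3 was most like Mmp2 (r = 0.980) and Zbtb7c most like Timp3 (r = 0.987). Treml4 led for Mmp9 (r = 0.966), F7 for Mmp12 (r = 0.979), Alpl for Mmp8 (r = 0.950), Adam9 for Timp1 (r = 0.984) and Stra6l for Timp2 (r = 0.942). For Mmp19 it was Tmem198b (r = 0.987), a gene that overlaps Mmp19 on the opposite strand (chr10:128800036-128804370), and the library kit does not mark strand, so reads of these 2 genes cannot be told apart where they overlap. Next came Bax for Mmp13, Tgtp2 for Mmp14, Fstl1 for Mmp2, Map1b for Timp3, Emc6 for Mmp9, Degs2 for Mmp12, Tead3 for Mmp8, Dusp1 for Timp1, Gla for Timp2 and Plau for Mmp19, with r from 0.936 (Gla) to 0.991 (Tgtp2). In the GENCODE annotation of mm10, Mmp12 overlaps Mmp1b, Timp1 lies within Syn1 and Timp3 within Syn3, each on the opposite strand, and Timp2 overlaps Cep295nl on its own strand.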

How the data were processed

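RNA-seq counts of 12 BMDM libraries, 3 in each of 4 groups taken from the labels, were analysed. The deposited values are whole-number counts per transcript row. Per the labels and the study's methods, the authors trimmed reads with Trimmomatic 0.36, aligned reads with HISAT2 (mm10) and obtained counts with HTSeq. The labels name both polyA selection and rRNA depletion. The table holds 115140 transcript rows, and a read may be counted for several rows of 1 gene, so 1 row per gene was kept, the one with the highest total. Every deposited sample column was used.

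Counts were tested with edgeR 4.0.16 (filterByExpr, TMM, robust quasi-likelihood) in R 4.3.3 on the 6 libraries of each comparison, or on all 12 for the difference of differences, with Benjamini-Hochberg adjustment over all genes tested. All 10 genes passed the filter in every comparison. A gene was called at a more than 2-fold difference with an adjusted p under 0.01. DESeq2 1.42.0, limma 3.58.1 (voom), other scaling and filters, other rows, all 12 libraries together, the replicate number as a block and leaving out each library were alternatives. On simulated counts, 200 genes were changed by a log2 of 2. The share recovered was 32.5% between the unstimulated columns and 99.0% between the LPS columns. It was 71.0% within the floxed headings, 77.0% within the Cre headings and 55.5% for the difference of differences. In the real counts, biological variation under the floxed headings was 48.4% in the unstimulated and 8.78% in the LPS columns. That comparison called 0 of 14712 genes and missed Lyz2 (log2 fold change -10.09). The 71.0% thus does not describe what this test could find in the real counts. Whether the other shares do was not tested. Total counts per library were 33577440 to 56445989, and precision is limited by the spread between libraries. The members and all lists were chosen with earlier results of these data known. Named genes were the members, Tlr4, Lyz2 and Il1b, the called gene with the largest change of each list and comparison, and the 2 genes most like each member; other genes of the lists were named when called. Markers of erythroid cells, lymphocytes and mast cells were also summed and lay at 0.0623 to 3.71 CPM. One gene of the list for activation and clearance of MMPs is not reported here, so no counts are given for that list.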

Additional observations from a re-analysis of the deposited data

How the results depend on the processing

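The order of the group levels was the same for all 10 genes with other scaling factors or with summed transcript rows. Of 798 single-gene values recomputed, 738 kept their direction and side of the threshold, 23 lost a call, 23 gained one and 14 changed sign. Between the unstimulated columns, where 1 gene was called, 3 were called by DESeq2, with all 12 libraries in one fit and at an adjusted p below 0.05, and 0 without a filter, with the replicate block and with summed rows. Leaving out 1 library gave 0 to 3. Within the Cre headings, where 2 were called, DESeq2 and the adjusted p below 0.05 each gave 6, all 12 libraries in one fit gave 0, the replicate block 1 (Timp1 lost, adjusted p = 0.01001), and leaving out 1 library 0 to 5. Between the LPS columns, where 8 were called, all 12 libraries in one fit gave 2, and leaving out 1 library 7 to 8. In the fit of all 12 libraries the wider unstimulated groups share in the estimate of the spread. The other 2 tests gave 0 under each alternative run.

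The main tests did not pair the libraries by replicate number, and whether the numbers mark pairs was not settled. The correlation of the deviations of same-numbered libraries from their group means was 0.0138 to 0.472 between the unstimulated columns, -0.0066 to 0.160 within floxed, -0.0374 to 0.0931 within Cre and 0.0583 to 0.190 between the LPS columns. For libraries of different number it was -0.490 to 0.203 between the unstimulated columns and -0.161 to 0.0972 within floxed. It was -0.0763 to 0.111 within Cre and -0.114 to 0.0447 between the LPS columns. The block changed no other count of calls.

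No value that changed sign was a call. Within the floxed headings, the log2 fold change of Mmp9 was 0.82 with limma, 1.49 with the replicate block and 2.30 without unstimulated floxed replicate 1 (range over left-out libraries -1.35 to 2.30). That of Mmp13 was 0.73 with the block, 0.02 and 0.56 without unstimulated floxed replicates 1 and 2, and 0.0071 without LPS floxed replicate 3 (-0.70 to 0.56). That of Timp2 was 0.0221 with the block and 0.28 without unstimulated floxed replicate 2 (-0.32 to 0.28), and that of Timp3 was 0.24 without replicate 1 (-3.60 to 0.24). Within the Cre headings Mmp9 was -0.24 without unstimulated replicate 2 (-0.24 to 1.58). Between the LPS columns Mmp8 was 0.23 without LPS floxed replicate 3 and 0.0043 without LPS Cre replicate 1 (-0.74 to 0.23). The difference of differences of Mmp9 was -1.98 without unstimulated floxed replicate 1 (-1.98 to 2.39). The cause of these changes was not tested.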
